A study of Drosophila melanogaster with 30 samples.

Results

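The genes described here build the machinery that divides a cell after its chromosomes have separated. They were listed by name, from what their proteins are known to do: tum, pav, scra, feo, Incenp, aurB, pbl and sti. No measured value enters that rule, although earlier results of these data were known when the list was made. Of these 8 genes, 6 carried a probe set that the array annotation assigns to 1 gene alone, out of 10844 genes with such a probe set. The other two, pav and sti, had no probe set under that rule and were not analysed here. Each of the 6 genes had 1 probe set, and all 6 passed the filter on dim probe sets (above the array's own median in at least 3 of 30 arrays). The aurB probe set was above that median in 18 arrays and those of tum, scra, feo, pbl and Incenp in all 30.

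After anaphase, antiparallel microtubules are bundled between the separating chromosomes into a central spindle, and this structure tells the cortex where to assemble a contractile ring. Centralspindlin, a complex of a kinesin (Pavarotti, pav) and a GTPase-activating protein (Tumbleweed, tum), recruits the exchange factor Pebble (pbl), which is needed to build the ring at the cell equator. The chromosomal passenger complex, with Aurora B kinase (aurB) and its scaffold Incenp, moves from centromeres to the central spindle and controls both chromosome attachment and cleavage. In proliferating cells, transcripts of this kind are usually high around mitosis.

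The study used Kc cells, an established Drosophila line with a tetraploid female karyotype, grown in suspension. Cells were exposed for 4 days to RNAi, and total RNA was hybridised to 30 Affymetrix arrays, 3 for each of 10 groups. The control received a nonspecific RNA made from the plasmid pBSK+ (named SK+). The other groups were depleted of Mip40, Mip120, Mip130, Lin-52 or Myb, of E2F2, of both RBF1 and RBF2 (RBFs), of L(3)MBT, or of E2F1. These proteins are known as parts or partners of the Drosophila Myb-MuvB/dREAM complex, which binds promoters of cell cycle and developmental genes, except E2F1, the activating E2F. The comparisons ask which of these proteins the transcripts depend on. Whether the triplicates are separate cultures is not said in the labels. The p-values therefore measure the spread between these arrays, which may be technical, and 3 arrays a group limit the precision.

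Of the 10 RNAi targets, 8 had a tested probe set, and all 8 were lower in their own knockdown, with changes of -0.36 to -2.37 on the log2 scale. The smallest were those of l(3)mbt (-0.36), Rbf2 (-0.44) and mip130 (-0.49), while mip40 changed by -2.00. The targets not tested were Myb, with no one-gene probe set in the annotation used, and Rbf (RBF1), which did not pass the brightness filter. The depletion of Myb and of RBF1 was therefore not checked here. Among hemocyte markers, 8 of 11 measured passed the brightness filter, and the control means of all 11 ran from 3.38 to 11.3. Of the measured markers of other tissues, 1 of 3 for neurons, 1 of 3 for muscle and 1 of 3 for crystal cells were tested. All 3 of the germ line markers (control means 4.75 to 8.20) and all 3 of the fat body markers (7.38 to 7.65) were tested. The filter counts any 3 of the 30 arrays, so a tested marker need not be bright in the control. The control means of eater (5.41) and vas (4.75), both tested, lay below the medians of the control arrays (6.55 to 6.57). The 3 L(3)MBT arrays stood apart: their 18S ribosomal RNA probe set from the middle of the transcript read 11.1 to 11.6 against 4.60 to 7.21 on the other 27 arrays. Their array medians were 6.44 to 6.48 against 6.50 to 6.58 elsewhere. The part of these differences in the L(3)MBT results was not tested.

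Loss of E2F1 lowered all 6 transcripts and loss of L(3)MBT raised all 6 in the values as deposited (4 of 6 after quantile or cyclic loess normalization), and loss of Mip120, Mip130, Lin-52 or Myb lowered 4 to 6 of them. Levels were compared by limma's moderated test over 7794 probe sets, with Benjamini-Hochberg adjustment within each comparison, and a change was called at an adjusted p under 0.05. All values are on a log2 scale. With E2F1 RNAi, 6 of 6 genes fell, against 31.3% of all tested probe sets called lower (22.9% were called higher). Their median change was -0.88, and that of all tested probe sets was -0.05. With L(3)MBT RNAi, 6 of 6 genes rose, where 38.9% of all probe sets were called higher and 34.6% lower. The calls of tum and scra were lost after quantile or cyclic loess normalization, but not with each array centred on its median, as described further on. The median over the genes was 0.44, beside 0.02 over all tested probe sets.

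Knockdown of a MuvB subunit or of Myb lowered 2 to 6 of the genes, where at most 10.7% of all probe sets were called lower in any 1 of these 5 comparisons. With Mip130 RNAi, 6 of 6 fell (background 5.98% lower and 5.02% higher), with a median change of -0.44. With Mip120 RNAi, 5 of 6 fell (10.5% lower, 8.67% higher; median -0.42), and Incenp was the gene that did not pass. Myb RNAi, for which 3.43% of probe sets were called lower and 2.36% higher, lowered tum, scra, feo and aurB, 4 of 6 genes, with a median of -0.49. With the replicate number as a block in the 6 Myb and control arrays, Incenp was called as well, giving 5 of 6. With Lin-52 RNAi, tum, scra, feo and pbl fell, 4 of 6 (10.7% lower, 8.74% higher; median -0.29). Mip40 RNAi gave the smallest shifts of the 5, a median of -0.18, with pbl and aurB called lower, 2 of 6 (8.92% lower, 6.99% higher).

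With E2F2 RNAi none of the 6 genes was called in limma's test, and none had an unadjusted p under 0.05. Over all probe sets 9.12% were called lower and 16.4% higher, and for 6 genes no call is not far from these shares. The changes of the 6 genes with E2F2 RNAi ran from -0.09 to 0.15. Under 3 of 17 alternatives tum was called lower (lowest limma adjusted p 0.0125). With RBFs RNAi, pbl alone of the 6 was called, as higher, where 11.9% of probe sets were lower and 11.5% higher. For 6 genes, that count is not far from these shares, and the pbl call was lost under 8 of 17 alternatives. The direction was shared within every knockdown that lowered these genes: 6 of 6 had a negative change with Mip40, Mip120, Mip130, Lin-52, Myb and E2F1. These comparisons use the same 3 control arrays. In bulk RNA, fewer dividing cells and less RNA per cell cannot be told apart.

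**Figure D1:**
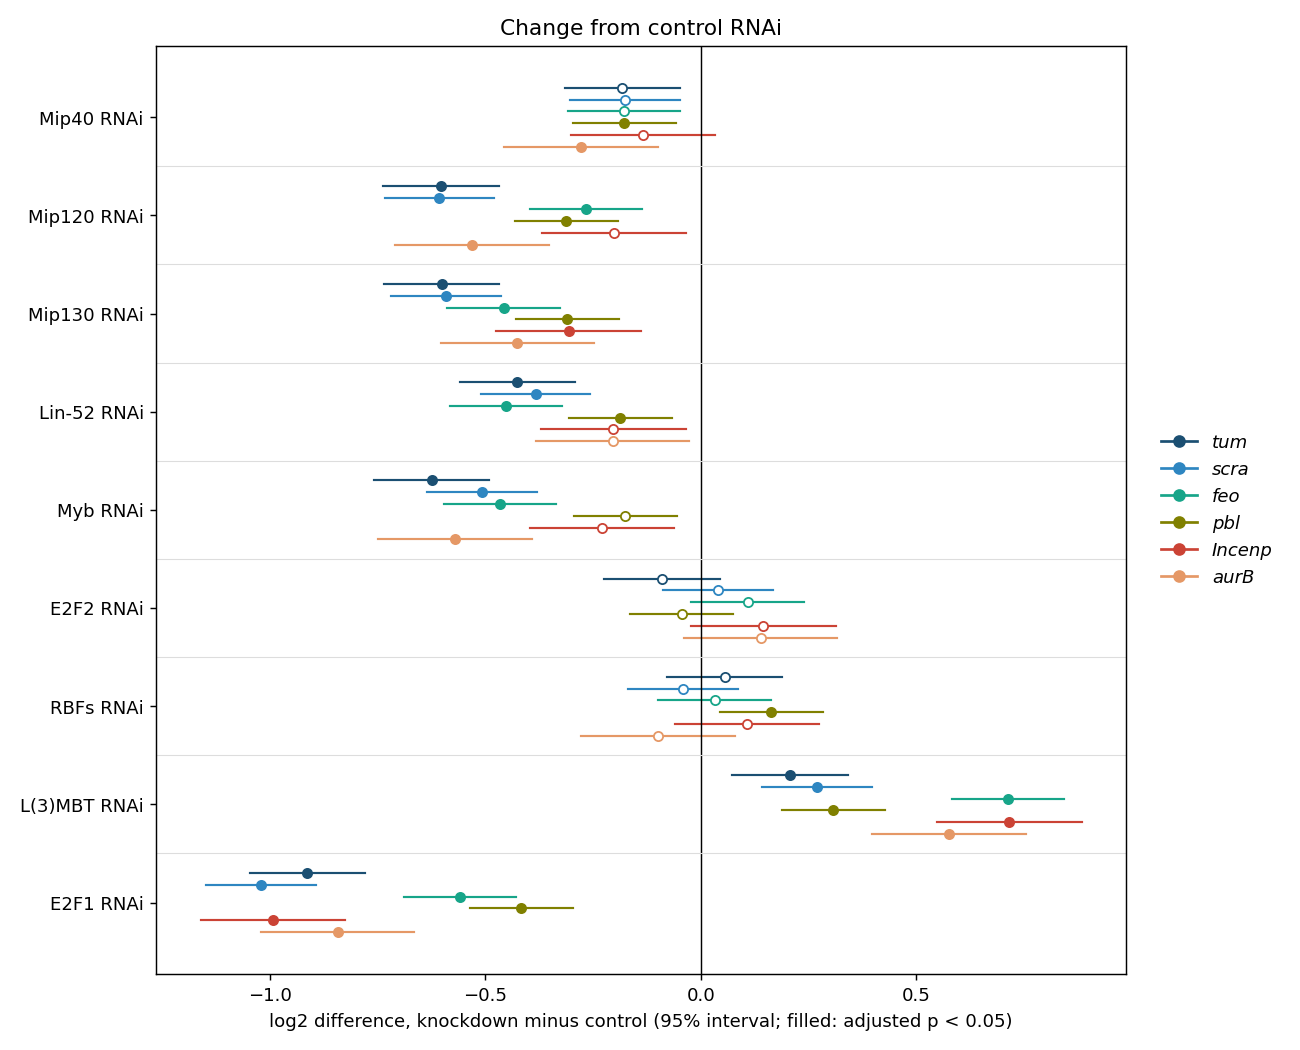
Change of each gene in each knockdown against the control, as the log2 difference of group means (x axis) with its 95% interval from limma; each row is a knockdown of 3 arrays against 3 control arrays, each colour a gene, and filled points passed an adjusted p of 0.05. E2F1 points lie farthest to the left, from -1.02 to -0.42, L(3)MBT points lie to the right of 0, and all 6 E2F2 points are open.

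Tumbleweed, the GTPase-activating subunit of centralspindlin, gave control values of 9.73, 9.83 and 9.49. With E2F1 RNAi tum read 8.72, 8.80 and 8.79. All 3 E2F1 arrays lay below every array of the other groups. The change was -0.91 (SE 0.07, 3 arrays a group), or 53.1% of control, with a limma adjusted p of 4.6e-13.

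The Myb arrays held tum at 9.18, 9.06 and 8.94, the Mip120 arrays at 9.11, 9.06 and 9.07, and the Mip130 arrays at 9.09, 9.07 and 9.08. These 3 groups overlapped each other and lay wholly below the control. The falls in tum were 0.63 with Myb (limma adjusted p 2.71e-08), 0.60 with Mip120 (2.61e-08) and 0.60 with Mip130 (2.86e-08). Lin-52 arrays, at 9.23, 9.26 and 9.28, formed the next step up, clear of Mip130 below and of Mip40 above, with a change of -0.43 (adjusted p 1.25e-05). Mip40 arrays read 9.48, 9.48 and 9.54, and one control array lay among them. The tum difference with Mip40 was -0.18 (limma adjusted p 0.0564), and it passed the test at 0.00171 when control replicate 3, the lowest control array, was left out; over all alternatives the adjusted p ran from 0.00025 to 0.364. E2F2 arrays at 9.49, 9.60 and 9.69 and RBFs arrays at 9.77, 9.72 and 9.72 overlapped the control. For E2F2, tum was -0.09 from control (adjusted p 0.329) and reached 0.0355 without control replicate 3, within a range of 0.0125 to 0.877 over the alternatives.

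Fascetto (feo), the fly relative of the microtubule bundler PRC1, read 8.97, 8.89 and 8.68 in the control. With L(3)MBT RNAi feo read 9.56, 9.46 and 9.66. No array of another group reached these values. The rise was 0.71 (SE 0.06), 164% of control, at a limma adjusted p of 7.1e-11.

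The lowest mean of feo was on the E2F1 arrays (8.26, 8.25 and 8.35), with Myb at 8.39, 8.38 and 8.37 just above them. Lin-52 arrays (8.43, 8.36 and 8.40) overlapped the Myb arrays, and Mip130 arrays (8.30, 8.43 and 8.44) overlapped both Myb and E2F1. In these 4 knockdowns feo fell by 0.56 (E2F1), 0.47 (Myb), 0.45 (Lin-52) and 0.46 (Mip130), with limma adjusted p-values from 9.53e-09 to 3.86e-06. Mip120 arrays, at 8.50, 8.58 and 8.66, stayed clear of the Lin-52 arrays but came just below the lowest control array. The change with Mip120 was -0.27 (limma adjusted p 0.00292), and it lost its call in the 6 arrays alone with the replicate number as a block (0.0812). Mip40 (8.70, 8.57 and 8.73), RBFs (8.92, 8.88 and 8.83) and E2F2 (8.97, 8.92 and 8.98) overlapped the control. The Mip40 difference in feo was -0.18 with a limma adjusted p of 0.0553, which became 0.00408 without control replicate 3 and 0.0468 without Mip40 replicate 3, in a range of 0.000364 to 0.342.

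Pebble, the exchange factor that centralspindlin recruits, varied least. Control arrays gave pbl values of 7.43, 7.39 and 7.39. E2F1 arrays read 7.00, 7.02 and 6.94, overlapping the Mip120 arrays at 7.13, 6.99 and 7.15. Both groups lay below the control, as did the Mip130 arrays at 7.01, 7.14 and 7.14. The falls in pbl were 0.42 with E2F1 (74.9% of control, limma adjusted p 4.22e-07), 0.31 with Mip120 (0.000223) and 0.31 with Mip130 (0.000312).

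Lin-52 (7.14, 7.22 and 7.28), Mip40 (7.30, 7.13 and 7.25) and Myb arrays (7.27, 7.14 and 7.28) overlapped each other in pbl and were also all below the control. Their changes were -0.19, -0.18 and -0.17, with limma adjusted p-values of 0.0225, 0.0348 and 0.0837. The Lin-52 call ended under 5 of 17 alternatives. Among these were leaving out control replicate 1 (0.0891), Lin-52 replicate 1 (0.1) or Lin-52 replicate 2 (0.0525), in a range of 0.0187 to 0.1. The Mip40 call in pbl ended under 7 of 17 alternatives. Among these were leaving out control replicate 1 (0.129), control replicate 2 (0.0719), Mip40 replicate 2 (0.216) or Mip40 replicate 3 (0.0553), in a range of 0.00548 to 0.216. RBFs arrays, at 7.59, 7.49 and 7.62, were above the control and below the L(3)MBT arrays at 7.64, 7.79 and 7.71. The RBFs rise of 0.16 (limma adjusted p 0.0409) lost its call under 8 of 17 alternatives. Among these were leaving out any 1 control array (0.0638 to 0.113) and RBFs replicate 1 (0.118) or 3 (0.151), in a range of 0.0283 to 0.151. The L(3)MBT rise was 0.31 (limma adjusted p 3.1e-05). E2F2 arrays, at 7.35, 7.37 and 7.36, differed from control by -0.04 (adjusted p 0.61).

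The scra gene encodes anillin, the scaffold that links actin, myosin and septins in the contractile ring. Control arrays read 9.13, 9.00 and 8.95 for scra, and E2F1 arrays 7.93, 8.04 and 8.05. The E2F1 arrays lay below those of every other group. This change of -1.02 (SE 0.06) was 49.3% of control, with a limma adjusted p of 1.14e-14.

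Mip120 (8.36, 8.49 and 8.42), Mip130 (8.46, 8.38 and 8.48) and Myb arrays (8.62, 8.52 and 8.42) formed an overlapping set for scra, and the Lin-52 arrays (8.66, 8.61 and 8.67) overlapped only the highest Myb array. The falls in scra were 0.61 with Mip120, 0.59 with Mip130, 0.51 with Myb and 0.38 with Lin-52, with limma adjusted p-values from 8.51e-09 to 2.98e-05. Mip40 arrays at 8.82, 8.83 and 8.90 lay between these and the control without overlap. The Mip40 difference of -0.18 had a limma adjusted p of 0.0519, and 0.0275 without control replicate 3 (range 0.00327 to 0.291). E2F2 (9.11, 9.00 and 9.09) and RBFs arrays (9.02, 8.94 and 9.00) overlapped the control, with scra differences of 0.04 and -0.04.

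Incenp, the passenger scaffold, read 8.50, 8.39 and 8.36 in the control. With E2F1 RNAi Incenp read 7.29, 7.50 and 7.47, and with L(3)MBT RNAi 9.22, 8.94 and 9.24. The first group lay below, and the second above, every array of the other 8 groups. The E2F1 change was -0.99 (SE 0.08), 50.2% of control (limma adjusted p 1.04e-11), and the L(3)MBT change was 0.72, 164% of control (8.35e-09).

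The MuvB and Myb knockdowns moved Incenp less. Mip130 arrays read 8.10, 8.12 and 8.11, Myb arrays 8.30, 8.18 and 8.09, Lin-52 arrays 8.38, 8.02 and 8.24, and Mip120 arrays 8.15, 8.18 and 8.32. All 4 groups overlapped their neighbours in level, and the highest Lin-52 array lay inside the control range. Only the Mip130 change of these 4 passed the test, at -0.31 (limma adjusted p 0.0115), and it ended without control replicate 1 (0.0832; range 0.000236 to 0.0832). The differences with Myb (-0.23), Lin-52 (-0.20) and Mip120 (-0.20) had limma adjusted p-values of 0.118, 0.0837 and 0.0865. Pairing the Myb and control arrays by replicate number, as a block in those 6 arrays, gave an adjusted p of 0.0223 for the Myb difference in Incenp. The Lin-52 difference in Incenp passed without Lin-52 replicate 1 (0.0153; range 0.00295 to 0.491). Mip40 (8.25, 8.23 and 8.36), E2F2 (8.50, 8.61 and 8.57) and RBFs arrays (8.65, 8.45 and 8.47) differed from control by -0.13, 0.15 and 0.11, with no call.

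Aurora B, the kinase of the same complex, gave control values of 7.00, 7.01 and 6.67. L(3)MBT arrays read 7.51, 7.32 and 7.58 and E2F1 arrays 6.11, 6.10 and 5.95. Neither group overlapped the control, although the highest E2F1 array was above the lowest Myb array (6.48, 6.43 and 6.06). The aurB change was -0.84 with E2F1 (SE 0.09, 55.8% of control, limma adjusted p 1.25e-09) and 0.58 with L(3)MBT (149% of control, 1.09e-06). The array's 23 control probe sets with no fly target had control means of 3.16 to 6.22, and the aurB mean of 6.05 with E2F1 RNAi lay inside that range, so the size of its fall is least certain.

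Mip120 (6.28, 6.35 and 6.45), Mip130 (6.44, 6.45 and 6.51) and Myb arrays overlapped for aurB and lay below the control. The falls were 0.53 (limma adjusted p 3.44e-05), 0.43 (0.000814) and 0.57 (2.34e-05). Lin-52 arrays, at 6.66, 6.74 and 6.67, and Mip40 arrays, at 6.66, 6.57 and 6.62, did not overlap but lay very close together, and the Lin-52 arrays reached into the control range. The Mip40 difference of -0.28 passed (limma adjusted p 0.026), but not without control replicate 1 (0.153), control replicate 2 (0.162), Mip40 replicate 2 (0.102) or Mip40 replicate 3 (0.0554), in a range of 3.63e-05 to 0.162. The Lin-52 difference of -0.20 did not pass (0.102), but did at 0.00807 without control replicate 3 (range 0.00455 to 0.371). RBFs (6.80, 6.74 and 6.84) overlapped the control, and E2F2 arrays (7.03, 7.03 and 7.04) lay just above it, with a difference of 0.14 (limma adjusted p 0.248).

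**Figure D2:**
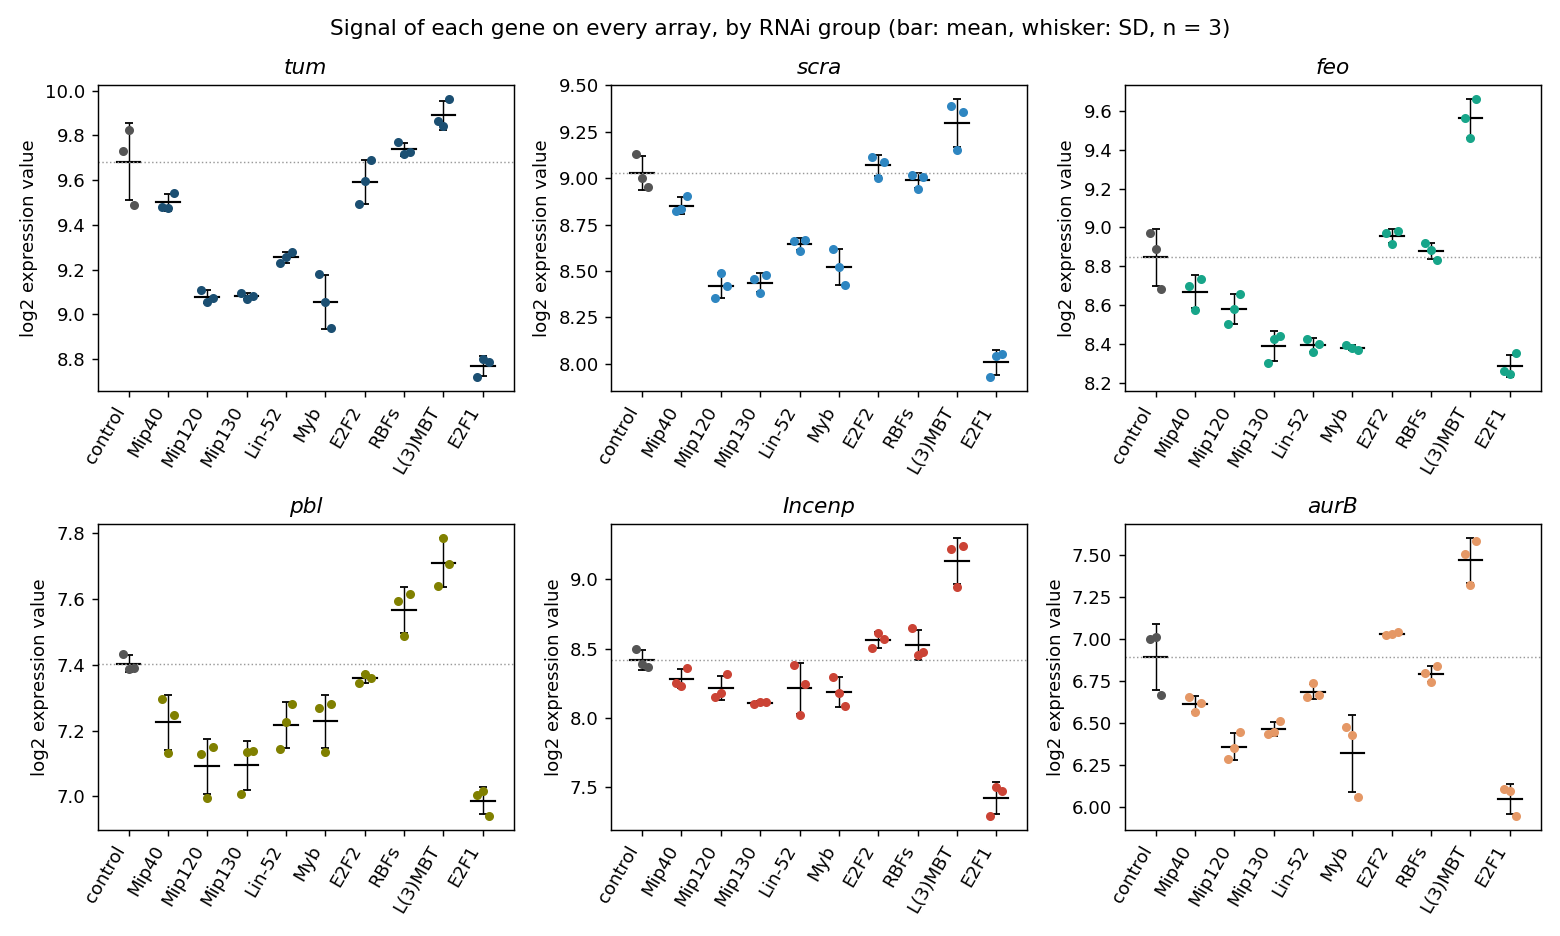
Level of each gene on each of the 30 arrays (y axis, log2 expression value), by RNAi group (x axis); points are arrays, bars are means and whiskers SDs of 3 arrays, the dotted line is the control mean, and each panel has its own y range. In every panel the E2F1 mean is the lowest and the L(3)MBT mean the highest, and control replicate 3 lies low for tum, feo and aurB.

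Ordered by level in the values as deposited, E2F1 had the lowest mean and L(3)MBT the highest for all 6 genes. For tum the L(3)MBT mean was not above the control after quantile normalization (-0.08) or cyclic loess (-0.01). The L(3)MBT arrays were apart from those of the next group for all 6. The E2F1 arrays were apart from the next group for tum, scra, feo and Incenp, but not for pbl and aurB. For feo the next group by mean was Myb, and the E2F1 arrays overlapped the lowest Mip130 array. Across the 10 group means, the 15 pairs of genes had Pearson correlations from 0.875 (scra with feo) to 0.981 (tum with scra). These are descriptions over 10 points of the values as deposited, and all 6 genes were read on the same arrays.

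The rise with L(3)MBT RNAi depended on the scaling for tum and scra. As deposited, tum read 9.86, 9.84 and 9.96 on the L(3)MBT arrays and scra 9.39, 9.15 and 9.36, and neither group overlapped the control. The rises were 0.21 for tum (limma adjusted p 0.00582) and 0.27 for scra (0.000337). Probe sets within 0.5 log2 units of the brightness of tum had a median L(3)MBT change of 0.24, and those near scra 0.16. After quantile normalization the tum change was -0.08 (adjusted p 0.197) and the scra change 0.02 (0.775), and after cyclic loess -0.01 (0.926) and 0.11 (0.069). With each array centred on its median, the rises were larger, 0.31 for tum and 0.37 for scra, and both calls held. The tum call also ended without control replicate 3 (0.115), in a range of 0.000316 to 0.926, and held under 11 of 16 alternatives. In contrast, feo, pbl, Incenp and aurB kept their calls under quantile normalization and cyclic loess. With quantile normalization their rises were 0.45, 0.26, 0.49 and 0.55, and with cyclic loess 0.56, 0.35, 0.61 and 0.69. As deposited, probe sets as bright as these 4 genes had median changes of 0.15 (near feo), -0.06 (near pbl), 0.10 (near Incenp) and -0.10 (near aurB).

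**Figure D3:**
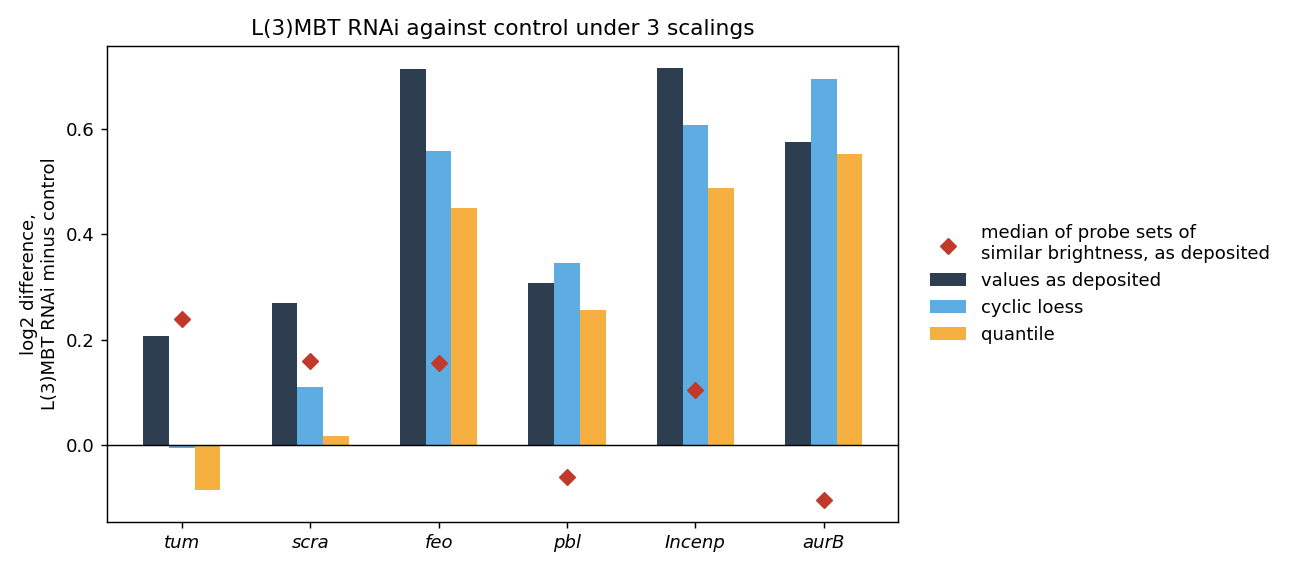
Change of each gene with L(3)MBT RNAi against control (y axis, log2 difference of means of 3 arrays) as deposited and after cyclic loess or quantile normalization (bars); diamonds mark the median change, as deposited, of probe sets within 0.5 log2 units of each gene's brightness. The feo, pbl, Incenp and aurB values stay above 0 in each scaling, while tum moves from 0.21 to -0.08 and scra from 0.27 to 0.02 under quantile normalization.

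The knockdowns were also compared with each other, with no control array in the difference. Myb and Mip130 RNAi were not told apart for any of the 6 genes: limma called 0 (1 had an unadjusted p under 0.05), where 12.4% of all tested probe sets were called in either direction. For 6 genes, no call is not far from that share. The differences, Myb minus Mip130, ran from -0.14 (aurB, 95% interval -0.32 to 0.03) to 0.13 (pbl, 0.02 to 0.25). The interval was -0.16 to 0.11 for tum, -0.05 to 0.21 for scra, -0.14 to 0.12 for feo and -0.09 to 0.25 for Incenp. Against Mip120, Myb RNAi left feo lower, 1 of 6 genes (background 8.01% lower), by -0.20 (limma adjusted p 0.027). This feo difference lost its call under 7 of 17 alternatives. Among these were leaving out Mip120 replicate 2 (0.0708) or 3 (0.137), or Myb replicate 1 (0.067) or 2 (0.0754), in a range of 0.00275 to 0.137. Against Lin-52, Myb gave lower tum and aurB, 2 of 6 (background 7.72% lower). The tum difference of -0.20 (limma adjusted p 0.0343) lost its call under 8 of 17 alternatives. Among these were leaving out Lin-52 replicate 2 (0.0851) or 3 (0.0955), or Myb replicate 2 (0.084) or 3 (0.154), in a range of 0.00433 to 0.291. The aurB difference was -0.37 (0.00311). It ended in the 6 arrays alone (0.073), and also there with the replicate number as a block (range 0.00156 to 0.073).

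Against Mip40, Myb RNAi gave lower values of tum, scra, feo and aurB, 4 of 6 genes (background 7.98% lower). The differences were -0.44 for tum (limma adjusted p 7.33e-06), -0.33 for scra (0.000204), -0.29 for feo (0.00136) and -0.29 for aurB (0.0168). The aurB difference from Mip40 lost its call under 3 of 16 alternatives. Among these were leaving out Mip40 replicate 1 (0.0687) or Myb replicate 3 (0.17), in a range of 0.00653 to 0.17. For pbl the difference was 0.00 with an adjusted p of 0.983.

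Against E2F2, Myb RNAi left 5 of 6 genes lower (background 18.5% lower), by -0.37 (Incenp) to -0.71 (aurB), while pbl differed by -0.13 (limma adjusted p 0.0865). Against RBFs, 6 of 6 were lower with Myb (background 13%), by -0.34 to -0.68, and against L(3)MBT 6 of 6 (background 38.2%), by -0.48 to -1.18. E2F1 RNAi left 5 of 6 genes lower than Myb RNAi did: Myb minus E2F1 was 0.77 for Incenp (limma adjusted p 2.43e-09), 0.51 for scra (3.07e-08), 0.29 for tum (0.000405), 0.24 for pbl (0.000794) and 0.27 for aurB (0.00904), where 31.7% of all probe sets were called higher. For feo it was 0.09 (adjusted p 0.226). The size of the aurB difference is uncertain, since the E2F1 mean of 6.05 and the lowest Myb array of 6.06 lie within the range of control probe sets with no fly target. The aurB call ended under 5 of 16 alternatives. Among these were leaving out E2F1 replicate 3 (0.0589), Myb replicate 1 (0.088) or Myb replicate 2 (0.0576), in a range of 1.25e-08 to 0.088. The activating and the repressive E2F differed for 6 of 6 genes (background 31.2% lower), with E2F1 minus E2F2 from -0.37 (pbl) to -1.14 (Incenp).

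**Figure D4:**
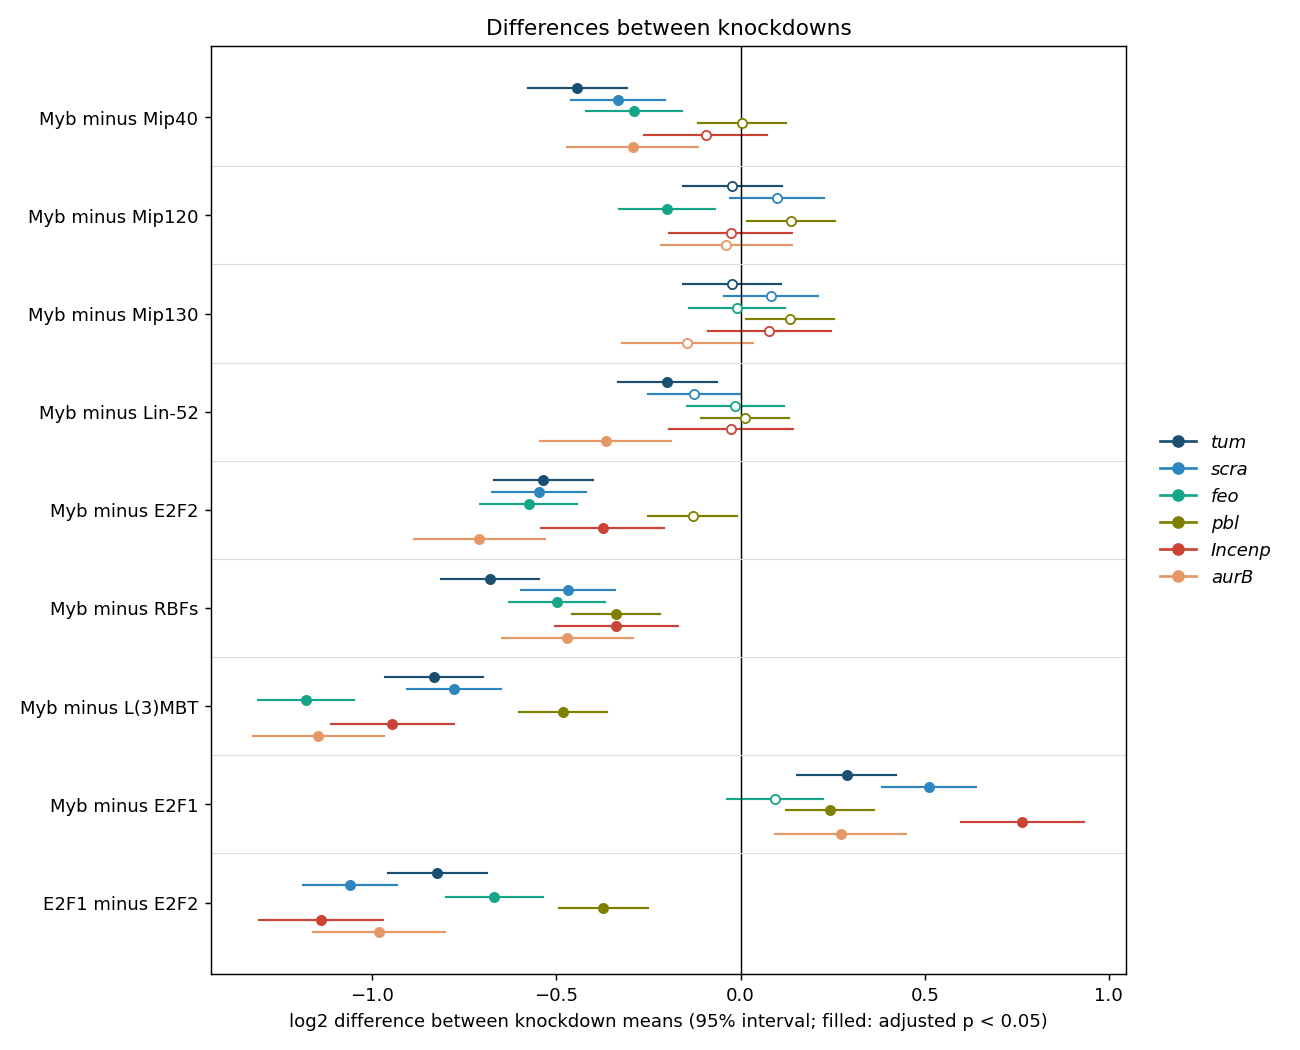
Differences between knockdowns for each gene (x axis, log2 difference of group means, 3 arrays each) with 95% intervals from limma; filled points passed an adjusted p of 0.05. Myb minus Mip130 intervals include 0 for every gene but pbl (0.02 to 0.25, open point), and Myb minus E2F1 reaches 0.77 for Incenp.

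A wider list of 30 cytokinesis genes gave 22 with a one-gene probe set, of which 21 were tested. With E2F1 RNAi, 12 of the 21 rose and 8 fell, with a median change of 0.27, where 22.9% of all probe sets were called higher and 31.3% lower and their median was -0.05. Under quantile normalization, cyclic loess or centring 12 rose and 6 fell. All 4 tested central spindle and passenger genes fell (median -0.68). Of these, Klp38B, a mitotic kinesin gene with the updated symbol neb, fell by 0.78 (limma adjusted p 1.73e-11). The gene nesd, which encodes the centralspindlin partner Nessun dorma, fell by 0.83 (limma adjusted p 1.15e-08). The mean of nesd was 6.19 with E2F1 RNAi and 6.11 with Myb RNAi, inside the range of control probe sets with no fly target, so the sizes of its falls in both are uncertain. The other two, borr (Borealin, a passenger subunit) and Det, are named for completeness after their values were seen, with changes of -0.50 (2.05e-07) and -0.58 (3.63e-07). By contrast, of the 8 membrane traffic and abscission genes 5 rose and 2 fell, and nuf, a Rab11 effector in furrow membrane delivery, rose by 1.01 (3.85e-15).

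With Myb RNAi, 2 of the 21 wider genes fell and 0 rose (median 0.05; over all probe sets 3.43% were lower and 2.36% higher): nesd, by 0.91 (limma adjusted p 3.07e-08), and the septin gene Septin5, by 0.33 (0.001). The gene nesd also fell with Lin-52 RNAi, by 0.67 (4.04e-06), with Mip120, by 0.40 (0.00306), and with Mip40, by 0.29 (0.0378), a call that ended with centring or cyclic loess. With Mip130 its change was -0.23 (0.139). Of the 21 wider genes, 6 were called higher and 2 lower with Mip120, 4 and 2 with Lin-52, 3 and 0 with Mip130, and 1 and 1 with Mip40. Over all probe sets, 8.67% were higher and 10.5% lower with Mip120, 8.74% and 10.7% with Lin-52, 5.02% and 5.98% with Mip130, and 6.99% and 8.92% with Mip40. The counts for Mip40, and the lower counts for Mip120 and Lin-52, were near these shares. The rises named by the rule were those of Vps4, the ESCRT disassembly ATPase (0.37 with Mip120 and 0.27 with Mip130), nuf (0.35 with Mip120 and 0.45 with Lin-52), Septin5 (0.24 with Mip130), the profilin gene chic (0.30 with Lin-52) and the ESCRT-associated ALiX (0.31 with Mip40 and 0.18 with Mip130).

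E2F2 RNAi raised 7 of the 21 wider genes and lowered 0, and RBFs RNAi raised 5 and lowered 0. Over all probe sets, 16.4% were higher and 9.12% lower with E2F2, and 11.5% and 11.9% with RBFs. Quantile normalization gave 5 higher and 1 lower with E2F2. The ESCRT-III gene shrb rose by 0.43 with E2F2 and 0.33 with RBFs, and Vps4 by 0.44 and 0.53. The phosphatidylinositol kinase gene fwd rose with E2F2 (0.32), from a control mean of 6.17 that lies within the range of control probe sets with no fly target, so its size is uncertain. The gene cindr, an adaptor that links anillin to the cell cortex, rose with RBFs (0.29). With L(3)MBT RNAi 12 rose and 3 fell (median 0.22), led by shrb (0.79), chic (0.53) and Vps4 (0.52), where 38.9% of all probe sets were called higher and 34.6% lower. These counts became 9 and 2 with quantile normalization (median 0.03), 10 and 2 with cyclic loess, and 15 and 1 with centring. The changes of shrb, chic and Vps4 were 0.58, 0.25 and 0.46 with quantile normalization and 0.69, 0.28 and 0.51 with cyclic loess, and all kept their calls.

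**Figure D5:**
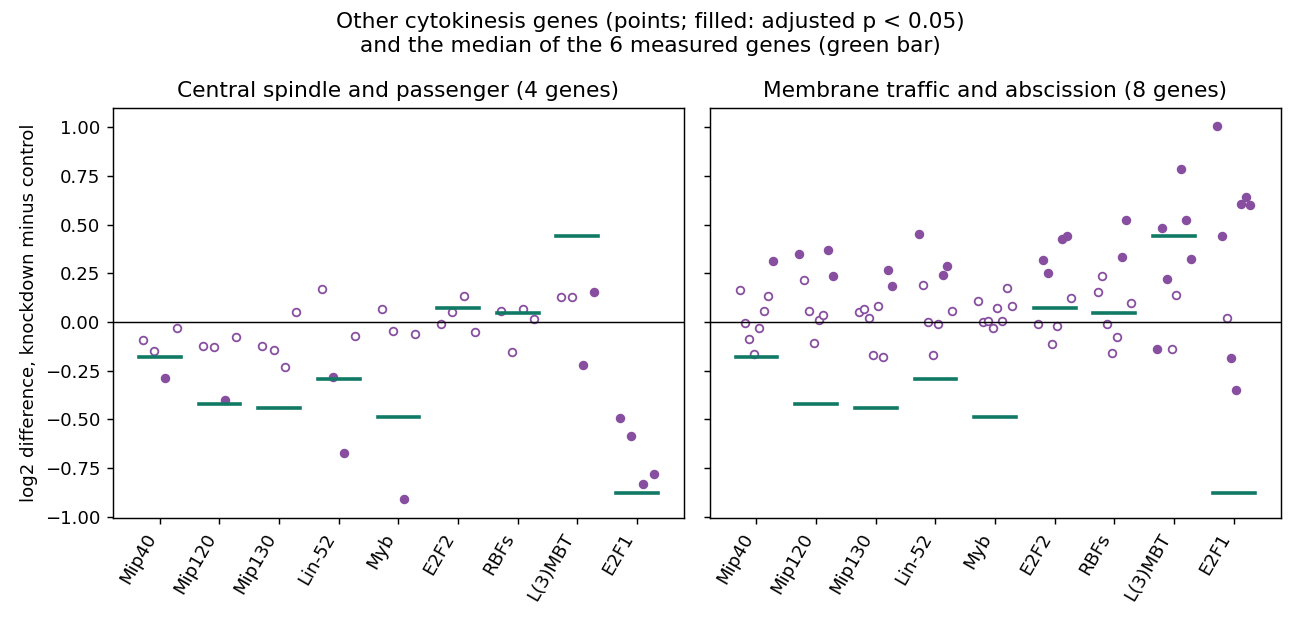
Changes of the central spindle and passenger genes (4) and the membrane traffic and abscission genes (8) of the wider cytokinesis list in the 9 comparisons with control (y axis, log2 difference of means of 3 arrays), by functional group; each point is a gene, filled points passed an adjusted p of 0.05, and the green bar is the median of tum, scra, feo, pbl, Incenp and aurB. The 4 central spindle and passenger genes are all lower with E2F1 RNAi, and nesd has the lowest Myb value, -0.91, at a mean within the range of control probe sets with no fly target.

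Outside the list, 4 of the 5 genes that followed the mean profile of the 6 genes most closely over the 10 group means, among 6386 genes compared, are described here. They were CG5498 (Pearson correlation 0.989, Spearman correlation 0.964), the glycosylation enzyme gene Alg1 (0.976, 0.879), the mitotic kinesin gene Klp67A (0.974, 0.915) and CG8173 (0.965, 0.952). Their group means moved by different amounts: the E2F1 change was -1.06 for CG8173, -0.85 for Klp67A, -0.81 for CG5498 and -0.31 for Alg1. With Myb RNAi the same genes differed from control by -0.79, -0.48, -0.52 and -0.15, and the value for Alg1 did not pass (limma adjusted p 0.195). They were picked for this likeness, so these values are a description.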

How the data were processed

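The deposited values of 14010 probe sets on 30 arrays were taken as log2 expression values from their range (1.949 to 13.60); the authors' log base, summarization and normalization are not given in the sources used here, and GCOS 1.2.0 is named per the submitters' processing notes. Biotinylated cRNA was made from 10 microgram of total RNA, per the labels' protocols. Probe sets were named through GEO's platform annotation, with symbols updated through a RefSeq gene table, and a gene was read by its brightest one-gene probe set. The 44 control probe sets were left out, and 7794 probe sets passed the brightness filter, which asked for a value over the array median on 3 or more arrays.

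One limma model (3.58.1, R 4.3.3; lmFit, then eBayes with its trend option; 20 residual degrees of freedom) held all 30 arrays, with 9 contrasts against control and 9 between knockdowns, two-sided, with Benjamini-Hochberg adjustment within each contrast. The script was tested on simulated data. Samples were grouped by their titles. Same-numbered Myb and control arrays deviated together (r 0.21, 0.401 and 0.58). In no other comparison with control did all 3 values exceed 0.1, and with Mip40, Mip120 and E2F2 all 3 were negative (-0.406 to -0.109). The labels name no pairing, so whether the numbers mark paired arrays is not settled. The model has no block. Where a block changed a call, the blocked value or the number of genes called with it is printed. The genes and lists were chosen with earlier results of these data known. Named genes were all listed members, up to 3 called genes of the wider list with the largest change per comparison, and the 5 most alike in profile, of which 1 is not reported here, nor is 1 functional group of the wider list. Alternatives changed the arrays fitted, weights, scaling, filter, trend, block and replicates; cyclic loess, leaving out the L(3)MBT arrays and the block in 6 arrays, and other scalings of the wider list, were added after seeing the data. Arrays give no counts, so no counting interval applies. No sequences are shown.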

Additional observations from a re-analysis of the deposited data

How the results depend on the processing

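Of 69 calls over the 6 genes and 18 comparisons, 56 held under every alternative run, and 13 were lost under at least 1; 2 alternatives, both for tum with L(3)MBT RNAi, turned the direction of a call (-0.00619 with cyclic loess, -0.0848 with quantile normalization). Each gene had 1 probe set, so reading it by another gave no value. Array number and signal over background limit aurB most. The causes of the following shifts were not tested.

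The number of the 6 genes called moved from 2 with Mip40 to 1 in the 6 arrays alone, 6 with array weights, 4 with the filter at the 70th percentile, 4 without the L(3)MBT arrays, 1 with no filter and 1 with the replicate block in 6 arrays, and ran from 0 to 5 when 1 array was left out. With E2F2, 0 became 1 with array weights and 1 with quantile normalization (0 to 1 with 1 array left out), and with RBFs, 1 became 0 in the 6 arrays alone and 0 with no filter (0 to 1). The RBFs call also changed gene and direction: pbl lost its rise under 8 of 17 alternatives, and aurB was called lower under 1 of 16 (limma adjusted p 0.0327). For Myb against Mip120, 1 became 0 in the 6 arrays alone, 3 with array weights, 0 with centring and 0 with the block in 6 arrays (0 to 1). For Myb against Mip130, 0 became 1 with array weights. For Myb against Lin-52, 2 became 0 in the 6 arrays alone, 1 with array weights, 1 with centring, 1 with the 70th percentile filter and 0 with the block in 6 arrays (1 to 2).

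With the replicate block in all 30 arrays no gene's call changed. The replicate block in 6 arrays alone ended, beside the calls above, those of pbl with Lin-52 (adjusted p 0.0962) and tum with L(3)MBT (0.06). Probe sets called with that block fell from 1498 to 928 (Mip120), 1513 to 922 (Lin-52), 1424 to 875 (Myb against Mip40), 1408 to 878 (Myb against Mip120) and 1338 to 372 (Myb against Lin-52).

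Array weights raised the number of probe sets called from 1240 to 2515 (Mip40), 1498 to 2674 (Mip120), 857 to 1955 (Mip130), 1513 to 2302 (Lin-52), 451 to 766 (Myb), 1424 to 2768 (Myb against Mip40), 1408 to 2831 (Myb against Mip120), 970 to 2243 (Myb against Mip130) and 1338 to 2527 (Myb against Lin-52). The 6 arrays alone gave 639 (Lin-52), 200 (Myb) and 389 (Myb against Lin-52). The 70th percentile filter gave 3745 and no filter 9542 against 5723 (L(3)MBT), and 3767 and 9747 against 5794 (Myb against L(3)MBT). With 1 array left out, counts ran from 566 to 1169 (Mip130), 869 to 1970 (Myb against Mip120) and 823 to 1759 (Myb against Lin-52).

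Lower and higher calls, 711 and 1276 with E2F2, became 425 and 1435 with centring and 1078 and 1100 with quantile normalization. With L(3)MBT, 2695 and 3028 became 1949 and 3667 with centring, which moved the median of all probe sets by 0.10. With E2F1, 2442 and 1784 became 1905 and 2148 with cyclic loess. Between knockdowns, 1439 and 1083 became 1287 and 1451 with quantile normalization (Myb against E2F2), 2980 and 2814 became 3583 and 2046 with centring (Myb against L(3)MBT), and with cyclic loess 1822 and 2467 became 2194 and 1856 (Myb against E2F1) and 2434 and 1699 became 2002 and 2205 (E2F1 against E2F2).

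The other reversals were of differences that had no call. Quantile normalization gave -0.0312 for scra with E2F2. With RBFs, array weights gave -0.0192 for tum and -0.0177 for feo. Cyclic loess gave -0.00965 for pbl in Myb against Mip40 and -0.00459 in Myb against Lin-52, and centring gave 0.000509 for feo in Myb against Mip130. Array weights gave 0.0557 (tum), 0.0577 (Incenp) and 0.083 (aurB) in Myb against Mip120, 0.0497 (tum) in Myb against Mip130, and 0.00707 (feo), -0.00371 (pbl) and 0.106 (Incenp) in Myb against Lin-52. With 1 array left out, values ran from -0.0401 to 0.127 (tum), -0.0783 to 0.0107 (scra) and -0.0494 to 0.0937 (feo) with RBFs, and from -0.0434 to 0.0494 for pbl in Myb against Mip40. In Myb against Mip120 they ran from -0.0828 to 0.0376 (tum), -0.0825 to 0.0238 (Incenp) and -0.117 to 0.0924 (aurB). In Myb against Mip130 they ran from -0.0841 to 0.0364 (tum) and -0.0531 to 0.0163 (feo). In Myb against Lin-52 they ran from -0.0325 to 0.00268 (feo), -0.025 to 0.058 (pbl) and -0.124 to 0.0565 (Incenp).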
